A study of Mus musculus with 6 samples.

Results

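Cells take up and release amino acids, and the transmitters made from them, through membrane carriers of the solute carrier (SLC) families. The genes described here are the mouse members of 6 of these families, SLC3, SLC6, SLC7, SLC36, SLC38 and SLC43, read on arrays of cultured astrocytes after transfection with miR-29 or with a control. They were taken as every non-control probe whose RefSeq accession maps to a symbol starting with Slc3a, Slc6a, Slc7a, Slc36a, Slc38a or Slc43a. The rule found 81 of the 41174 non-control probes, and these stand for 52 of the 18353 symbols on the array. One of the 52, Slc7a6os, is a protein-coding gene named after Slc7a6 and is not a transporter, so it is given by itself and 51 transporter genes remain.

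The cells were primary astrocytes from the cerebral cortex of C57BL/6 mouse fetuses at embryonic day 18, bought as a culture. The miR-29 group received precursors named for human miR-29 (a, b and c mixed in the proportion 1 to 2 to 1), and the control group received a negative control precursor, both at 80 nM. Transfection followed the first plating by 3 weeks and, per the labels, reached over 90% of the cells. RNA was taken 48 h later and hybridised to 6 one-colour Agilent whole-genome arrays, 3 per group. The arrays of a group are labelled as extraction replicates and nothing names separate cultures, so that each p-value rests on the spread between these samples alone, which may be technical. The transfection reagent was common to both groups, and no untransfected sample is among the 6. All 3 miR-29 arrays shared slide 1 with control replicate 1, while the remaining controls, replicates 2 and 3, were on slide 2.

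MicroRNAs lower the level of messenger RNAs that pair with bases 2 to 8 of the microRNA, its seed. The mouse mature forms of the transfected family are shown because this family is the treatment, and all 3 carry 1 seed. They are RefSeq sequences on GRCm38.p6, at chr6:31062673-31062694 (minus strand) for miR-29a, chr6:31063025-31063047 (minus strand) for 1 of the copies of miR-29b and chr1:195037600-195037621 (plus strand) for miR-29c. The seed is in capitals.
mmu-miR-29a-3p: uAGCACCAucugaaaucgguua
mmu-miR-29b-3p: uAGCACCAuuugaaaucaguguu
mmu-miR-29c-3p: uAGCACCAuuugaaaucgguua

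An SLC3 protein is a heavy chain that carries an SLC7 light chain to the cell surface, and the light chain exchanges amino acids. Other SLC7 proteins carry arginine and lysine by themselves. SLC38 carriers move glutamine and small neutral amino acids, SLC6 carriers use the sodium gradient to take up GABA, glycine, taurine, creatine and monoamines, SLC36 carriers are coupled to protons, and SLC43 carriers let branched-chain amino acids through. In brain, astrocytes are known for releasing glutamine and for clearing GABA and glycine from synapses.

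Of the 52 symbols 33 could be tested, since a probe of theirs was well above background throughout the miR-29 arrays, the control arrays or both, and 32 of these are transporters. A gene was read by its brightest such probe. Of the 33, 15 were lower and 8 higher after miR-29 and 10 did not pass the test (limma, two-sided, Benjamini-Hochberg adjusted over all genes, threshold 0.05). Without Slc7a6os the counts were 15 lower, 7 higher and 10 not past. Of the 15, Slc7a14 and Slc43a1 entered the test through the control arrays alone, so the filter had already picked them for the group where they are high. Without the filter on dim probes Slc43a1 lost its call (adjusted p = 0.0819) and Slc7a14 kept it. With only genes above background on all 6 arrays, 13 of 31 members were lower and 8 higher, against 4440 lower and 6624 higher of 18529 genes. Over all 19741 genes and transcripts tested, 22.8% were lower, 35.3% higher and 58.1% called in either direction. The median log2 fold change, miR-29 minus control, was -0.24 for the 33 members and 0.068 for all genes. Groups of arrays did not overlap for 27 of the 33, and for 66.2% of all genes. The median of the members was again -0.24 with the 2 that have only a bound set at that bound. Probe by probe, 23 of the 50 tested member probes were lower, 12 higher and 15 not past, against 22.7% lower, 35.3% higher and 58% called in either direction among all 26428 probes tested.

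**Figure D1:**
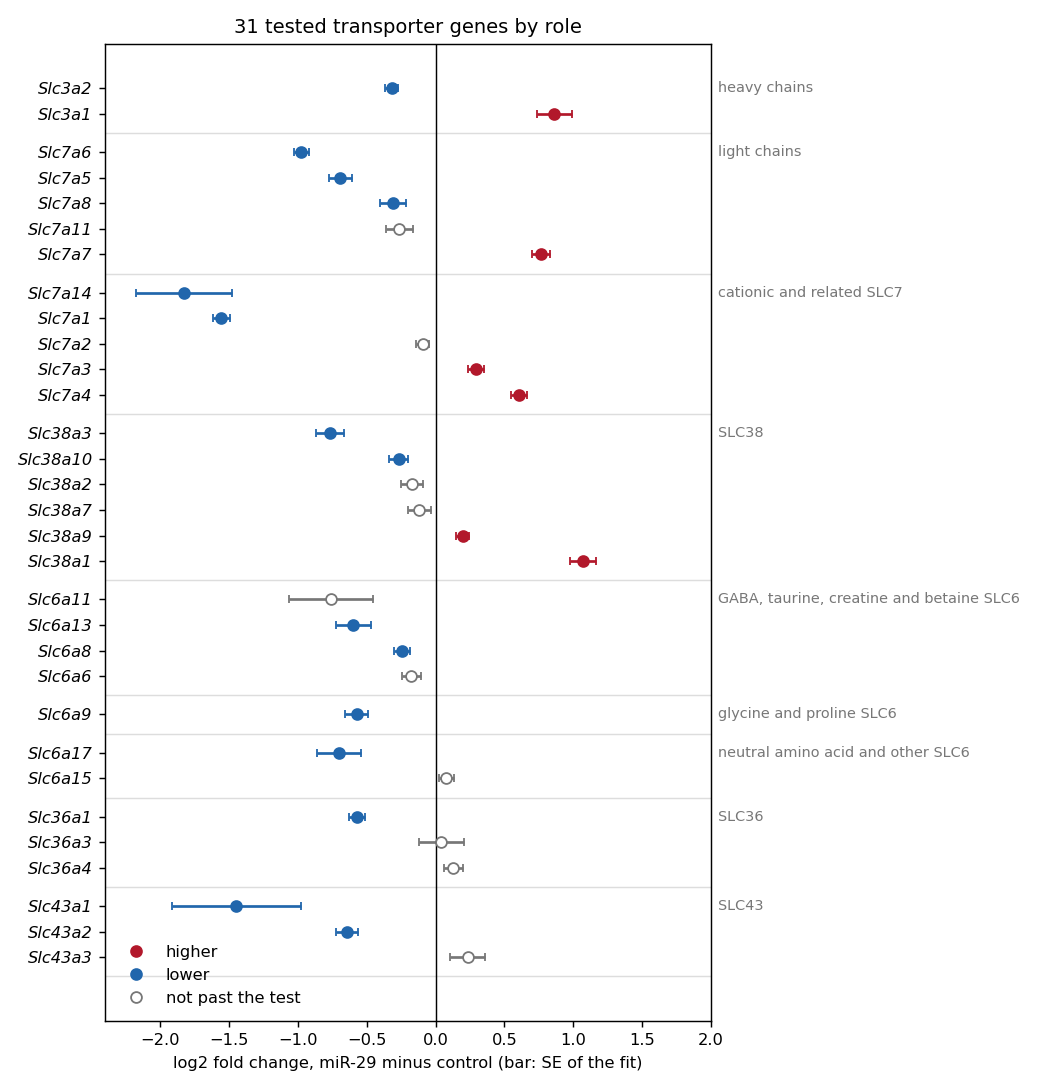
Log2 fold change (miR-29 minus control, n = 3 arrays per group) of 31 of the 32 tested transporter genes, grouped by role, with bars for the standard error of the fit. Filled points passed the test and open points did not. The 15 lower genes lie left of 0 and reach -1.56 (Slc7a1) among those measured in both groups, the 6 higher genes reach 1.07 (Slc38a1), and the points of Slc7a14 and Slc43a1 are fitted values of genes that have only a bound.

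The split between lower and higher calls changed with another scaling. When the 6 spike-in types detected on all arrays took the place of each array's 75th percentile, the median of all genes was -0.18, a shift of -0.25, and 28.4% of all calls were higher, against 60.8% with the 75th percentile. Among the 33 members 21 were then lower and 4 higher, and their median was -0.50. The 15 members called lower had negative values in every alternative tried. Of the 8 called higher, 7 had positive values in every alternative, and Slc38a9 turned.

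The cultures expressed the genes that define astrocytes. Of 12 astrocyte markers 11 were well above background on all 6 arrays, and Gjb6, a connexin gene, was not above it on any. The summed relative signal of the 12, where a relative signal of 1 is the array's 75th percentile, was 100.4 to 110.6 on the miR-29 arrays and 70.1 to 73.2 on the control arrays. The sum of 13 fibroblast, meningeal and mural markers, 11 of them above background on all 6 arrays and Rgs5 on none, was 544 to 580 on the miR-29 arrays and 740 to 796 for the controls. For 14 neuron markers, 10 of them above background on all 6 arrays, it was 7.12 to 7.36 on the miR-29 arrays and 8.98 to 9.62 for the controls. Within these lists single markers went both ways: 7 rose and 1 fell of 11 tested astrocyte markers, 5 rose and 5 fell of 11 fibroblast, meningeal and mural markers, and 4 rose and 6 fell of 12 neuron markers. Over all genes and transcripts tested, 35.3% rose and 22.8% fell. The bright collagen gene Col1a1 fell by 1.28 with its brightest probe, and its other probes gave -3.93 and -3.25. Col1a2 fell by 2.27, while the smooth muscle genes Acta2 and Cnn1 rose by 0.62 and 1.34. A sum therefore does not stand for its whole list. Of 10 oligodendrocyte lineage markers 9 were above background throughout and Mog on no array, and the sum was 5.87 to 5.89 on the miR-29 arrays and 5.17 to 5.29 for the controls. Of 9 microglia markers 4 were above background throughout and Aif1, Cx3cr1, Ptprc and C1qa on no array, with sums of 3.27 to 3.52 on the miR-29 arrays and 4.37 to 4.85 for the controls. Of 8 endothelial markers 4 were above background throughout and Tek on no array, with sums of 1.99 to 2.08 on the miR-29 arrays and 2.50 to 2.86 for the controls. A single gene made up most of each of these last sums. Tmem119, of the microglia list, averaged 3.17 on the miR-29 arrays and 4.28 on the control arrays. Flt1, of the endothelial list, averaged 1.65 and 2.11. Of the tested markers 5 rose and 3 fell for the oligodendrocyte lineage, 1 rose and 2 fell for microglia, and 2 rose and 2 fell for endothelium. With spike-in scaling these counts were 4 and 4, 0 and 3, and 1 and 2. For astrocyte markers they were then 5 and 1, for fibroblast, meningeal and mural markers 4 and 5, and for neuron markers 4 and 6. Over all 19741 genes and transcripts, 3010 rose and 7607 fell with that scaling. All sums were taken with the 75th percentile alone, and spike-in scaling shifts the log2 fold changes by -0.25. The part of these cell types in the transporter results was not tested, and in such a culture fewer cells of a type and less RNA per cell cannot be told apart.

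Both heavy chain genes were measured, and they went in opposite directions. Slc3a2 encodes 4F2hc (CD98), the heavy chain of most light chains outside kidney and gut. Its relative signal was 13.3, 13.0 and 12.9 in miR-29 astrocytes, against 17.0, 16 and 15.9 in control astrocytes. Every miR-29 array was below every control array. The log2 fold change was -0.32 (SE 0.0496, adjusted p = 0.0025), and the second probe gave -0.25 (SE 0.0746, adjusted p = 0.0306 over all probes). Slc3a1 encodes rBAT, known as the heavy chain of the renal cystine and dibasic amino acid exchanger. It was dim, at 0.0427, 0.0494 and 0.0412 in miR-29 astrocytes, against 0.0258, 0.0271 and 0.0206 in control astrocytes, and the groups did not overlap. It rose by 0.86 (SE 0.125, adjusted p = 0.00192), but by 0.26 with normexp background correction. Normexp was run with an offset, which shrinks the changes of dim probes by construction, here and below.

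Among the light chains 5 of 10 genes on the array could be tested: 3 fell, 1 rose and 1 did not pass. Slc7a6 encodes y+LAT2, which exchanges arginine for glutamine and sodium. It stood at 0.391, 0.389 and 0.415 in miR-29 astrocytes, against 0.807, 0.75 and 0.792 in control astrocytes. The miR-29 values did not reach those of any control array, and the fold change was -0.98 (SE 0.0542, adjusted p = 7.23e-05), with -0.94 from its second probe. Slc7a5 encodes LAT1, the exchanger for large neutral amino acids such as leucine and tryptophan. Its values were 1.11, 0.992 and 1.09 in miR-29 astrocytes, against 1.55, 1.81 and 1.80 in control astrocytes. It fell by 0.69 (SE 0.0835, adjusted p = 0.000938), and by 0.54 against the control array of the same slide, the lowest of the 3 controls. With 1 slide holding controls alone, that difference is also the value a slide term gives.

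Slc7a7 encodes y+LAT1, the close relative of y+LAT2 with the same kind of exchange, and it moved the other way. Its values were 1.59, 1.51 and 1.45 in miR-29 astrocytes, against 0.939, 0.897 and 0.836 in control astrocytes. All miR-29 arrays were above all control arrays, and it rose by 0.77 (SE 0.0654, adjusted p = 0.000266). The difference between the fold changes of Slc7a6 and Slc7a7 was not itself tested. Slc7a6os, which is not a transporter gene, was at 1.52, 1.47 and 1.53 in miR-29 astrocytes, against 1.21, 1.17 and 1.18 in control astrocytes. Its rise of 0.35 (SE 0.0447, adjusted p = 0.00122) did not pass with spike-in scaling (0.095, adjusted p = 0.251).

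Slc7a8 encodes LAT2, a light chain for neutral amino acids of any size. It was at 0.565, 0.567 and 0.494 in miR-29 astrocytes, against 0.650, 0.745 and 0.620 in control astrocytes, so the groups lay next to each other without overlap. The fall of 0.31 (SE 0.0933, adjusted p = 0.0312) was lost with a slide term in the model (-0.27, adjusted p = 0.17) and without any 1 of miR-29 replicates 1, 2 and 3 or control replicate 2 (adjusted p = 0.0565, 0.056, 0.0849 and 0.0758). Slc7a11 encodes xCT, which brings in cystine in exchange for glutamate and so feeds glutathione synthesis. Its brightest probe read 0.140, 0.143 and 0.127 in miR-29 astrocytes, against 0.177, 0.144 and 0.174 in control astrocytes, with the nearest arrays of the groups all but equal. The log2 fold change was -0.26 (SE 0.0982, adjusted p = 0.0598), and none of the 3 probes passed, the others giving -0.32 and 0.018. It passed without control replicate 2 (-0.36, adjusted p = 0.0132) and with spike-in scaling (-0.51, adjusted p = 0.00668). The light chain genes Slc7a9, Slc7a10, Slc7a12, Slc7a13 and Slc7a15 were not above background on any array. Slc7a10 encodes Asc-1, a carrier of serine and alanine.

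**Figure D2:**
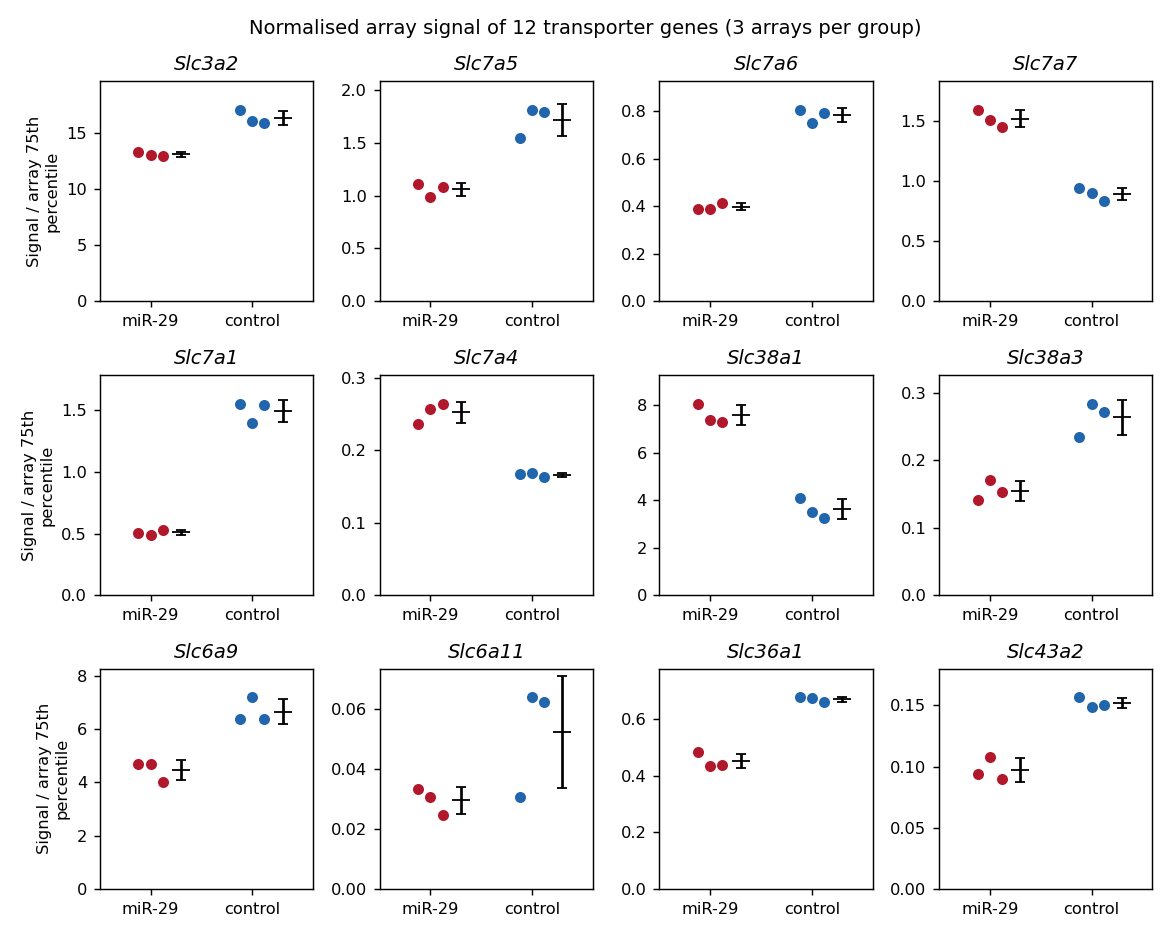
Relative signal (processed signal divided by the array's 75th percentile, linear axes from 0) of 12 transporter genes on each miR-29 array (red, left) and control array (blue, right), with the mean and SD of the 3 arrays beside each group. In every panel but that of Slc6a11 the groups do not overlap, and there control replicate 1 lies at 0.0308, among the miR-29 arrays.

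Of 5 SLC7 genes for cationic amino acids and their relatives, 2 fell, 2 rose and 1 did not pass. Slc7a1 encodes CAT-1, the main carrier of arginine and lysine in most cells, and had the largest fall among the members measured in both groups. Its relative signal was 0.506, 0.492 and 0.528 in miR-29 astrocytes, against 1.55, 1.39 and 1.54 in control astrocytes. The lowest control array was above the highest miR-29 array by more than the whole range of either group. The fold change was -1.56 (SE 0.0632, adjusted p = 4.05e-05), a mean of 0.509 ± 0.018 on miR-29 arrays and 1.5 ± 0.090 on control arrays (SD, n = 3 each). The second, dimmer probe of Slc7a1 also fell, but by 0.41 (SE 0.0572, adjusted p = 0.00164 over all probes), and the mean of both probes gave -0.98. With a slide term the brightest probe stood at -1.61 (adjusted p = 0.00058).

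Slc7a2 encodes CAT-2, a further cationic carrier. It was at 0.684, 0.700 and 0.681 in miR-29 astrocytes, against 0.742, 0.709 and 0.754 in control astrocytes, a difference of -0.094 (SE 0.0469, adjusted p = 0.13) that passed with spike-in scaling alone (-0.35, adjusted p = 0.00863). The third cationic carrier, CAT-3 of Slc7a3, is known from neurons and thymus. It read 0.783, 0.741 and 0.691 in miR-29 astrocytes, against 0.591, 0.594 and 0.621 in control astrocytes. The groups did not overlap, and it rose by 0.29 (SE 0.0616, adjusted p = 0.0082), which did not pass with spike-in scaling (0.043, adjusted p = 0.62). Slc7a4, a relative for which no amino acid transport is established, was at 0.236, 0.256 and 0.264 in miR-29 astrocytes, against 0.166, 0.168 and 0.163 in control astrocytes. It rose by 0.60 (SE 0.0579, adjusted p = 0.0004), and by 0.36 with normexp and 0.35 with spike-in scaling, where it also passed. Slc7a14, a lysosomal relative, was above background on the 3 control arrays and on no miR-29 array. Having entered the test through the controls alone, it was at least 1.54-fold lower after miR-29 (adjusted p = 0.00579), where the bound sets the control mean against a limit for each miR-29 array, its lowest signal above background or the probe's own value if higher. Here and below, the adjusted p beside a bound is that of the fitted values and does not test the bound. The call of Slc7a14 was lost with normexp (-0.23, adjusted p = 0.0956).

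Of 10 SLC38 genes on the array 6 were tested, of which by their brightest probes 2 fell, 2 rose and 2 did not pass, and 1 of the 2 that rose, Slc38a9, has probes that disagree. Slc38a1 encodes SNAT1, a sodium-coupled carrier of glutamine and alanine (system A). It had the largest rise among the 33. Its relative signal was 8.08, 7.38 and 7.32 in miR-29 astrocytes, against 4.08, 3.52 and 3.26 in control astrocytes. All miR-29 arrays were well above all control arrays, and the fold change was 1.07 (SE 0.0948, adjusted p = 0.000302). All 5 probes of Slc38a1 rose, by 0.58 to 1.07, and the difference was 0.90 against the control array of the same slide. Slc38a3 encodes SNAT3, the system N carrier known for releasing glutamine from astrocytes. It read 0.142, 0.171 and 0.153 in miR-29 astrocytes, against 0.235, 0.284 and 0.272 in control astrocytes, without overlap. It fell by 0.77 (SE 0.102, adjusted p = 0.00137), by 0.60 within slide 1 and by 0.43 with normexp.

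Slc38a2 encodes SNAT2, the system A carrier known to be induced when amino acids are scarce. It was at 6.49, 6.73 and 7.51 in miR-29 astrocytes, against 7.99, 7.21 and 8.13 in control astrocytes, and the groups overlapped. Its difference of -0.17 (SE 0.0791, adjusted p = 0.11) did not pass, nor did that of its second probe (-0.089), but it passed with spike-in scaling (-0.42, adjusted p = 0.0178) and with quantile normalization (-0.24, adjusted p = 0.0397). Slc38a10, a less studied family member, was at 10.4, 11.3 and 11.4 in miR-29 astrocytes, against 14.3, 12.8 and 12.9 in control astrocytes. It fell by 0.27 (SE 0.0683, adjusted p = 0.017) and by 0.43 with its second probe. Median centring ended the call (adjusted p = 0.0629), as did leaving out miR-29 replicate 1 (-0.23, adjusted p = 0.0595). Slc38a7, a glutamine carrier placed in lysosomes, differed by -0.12 (SE 0.0838, adjusted p = 0.262) and by -0.00049 within slide 1, and passed only with spike-in scaling (-0.37, adjusted p = 0.0331).

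Slc38a9 encodes a lysosomal carrier that reports arginine to the mTORC1 kinase complex, and its probes went in different directions. The brightest read 0.709, 0.752 and 0.734 in miR-29 astrocytes, against 0.635, 0.650 and 0.629 in control astrocytes. It rose by 0.20 (SE 0.0466, adjusted p = 0.013), which did not pass without miR-29 replicate 2 (0.18, adjusted p = 0.0502). A dimmer probe read 0.0485, 0.0493 and 0.0471 in miR-29 astrocytes, against 0.0879, 0.0810 and 0.0810 in control astrocytes and fell by 0.79 (SE 0.0551, adjusted p = 0.00013 over all probes). The remaining probe gave -0.25 (adjusted p = 0.0617). The mean of the 3 probes fell by 0.28 (adjusted p = 0.00762), and with spike-in scaling the brightest probe stood at -0.053, so that no direction can be given for this gene. The genes Slc38a4, Slc38a5, Slc38a8 and Slc38a11 were not above background on any array.

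**Figure D3:**
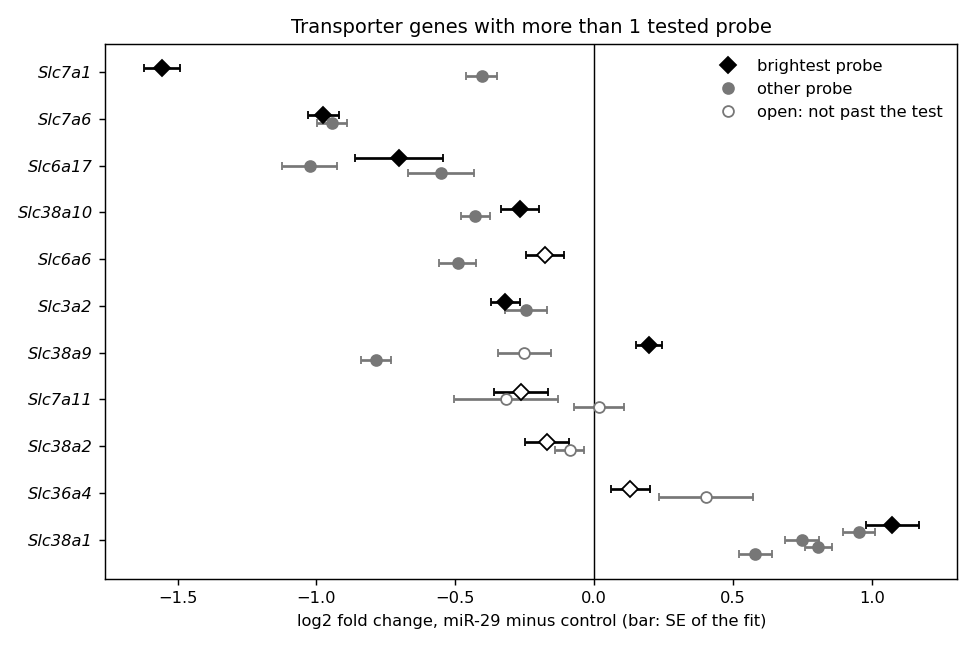
Log2 fold change (miR-29 minus control) of every tested probe for the 11 transporter genes with more than 1, with bars for the standard error. Diamonds are the probe that represents the gene, circles the others, and open symbols did not pass. The probes of 9 genes share their call, while those of Slc38a9 and Slc6a6 do not.

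Among the SLC6 carriers for GABA, taurine, creatine and betaine, Slc6a8 and Slc6a13 fell, and Slc6a6 and Slc6a11 did not pass. Slc6a8 encodes the creatine transporter, through which cells take up creatine, a substrate of creatine kinase. It was at 11.9, 11.3 and 11.5 in miR-29 astrocytes, against 14.3, 13.8 and 13.0 in control astrocytes. The groups did not overlap, and it fell by 0.24 (SE 0.0559, adjusted p = 0.0113), which did not pass with median centring (-0.24, adjusted p = 0.056). Slc6a6 encodes the taurine transporter. Its brightest probe read 18.5, 17.3 and 17.0 in miR-29 astrocytes, against 21.5, 19.0 and 19.3 in control astrocytes and did not pass (-0.18, SE 0.0679, adjusted p = 0.0661). The other probe fell by 0.49 (SE 0.0675, adjusted p = 0.00148 over all probes). The brightest probe passed with a slide term in the model (-0.29, adjusted p = 0.0249), normexp (adjusted p = 0.0281), quantile normalization (-0.25, adjusted p = 0.0114), another variance model (adjusted p = 0.0295) and spike-in scaling (-0.43, adjusted p = 0.00157).

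The GABA carriers described here were dim. Slc6a11 encodes the GABA transporter most often named as that of astrocytes. It read 0.0333, 0.0307 and 0.0247 in miR-29 astrocytes, against 0.0308, 0.0639 and 0.0623 in control astrocytes. Only the controls of slide 2 stood higher. The difference of -0.76 (SE 0.304, adjusted p = 0.0737) shrank to -0.072 within slide 1 and with a slide term in the model (adjusted p = 0.751), while it was called lower without control replicate 1 (-1.11, adjusted p = 0.00166). It also passed with spike-in scaling (adjusted p = 0.0322), quantile normalization (adjusted p = 0.0325) and median centring (adjusted p = 0.0395).

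Slc6a13 encodes GAT-2, which is known from the meninges and is also among the 13 fibroblast, meningeal and mural markers whose sums are given above. It was at 0.0225, 0.0249 and 0.0199 in miR-29 astrocytes, against 0.0293, 0.0381 and 0.0346 in control astrocytes. It fell by 0.60 (SE 0.126, adjusted p = 0.00829), which did not pass with a slide term in the model (-0.39, adjusted p = 0.0708) or with normexp (-0.066, adjusted p = 0.648). Slc6a12, the betaine and GABA carrier gene, was not above background on any array. The monoamine transporter genes Slc6a2 (noradrenaline), Slc6a3 (dopamine) and Slc6a4 (serotonin) were not above background on any array either.

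Slc6a9 encodes GlyT1, the glycine transporter of astrocytes, and was the tested member of the glycine and proline group. Its relative signal was 4.69, 4.69 and 4.03 in miR-29 astrocytes, against 6.38, 7.18 and 6.38 in control astrocytes. The groups were clearly apart, and it fell by 0.57 (SE 0.0861, adjusted p = 0.00217) and by 0.52 within slide 1. Slc6a7, the proline transporter gene, was not above background on any array. Of 6 other SLC6 genes 2 were tested, and 1 fell and 1 did not pass. Slc6a17 encodes a vesicular carrier of neutral amino acids known from neurons. Its brightest probe read 0.0634, 0.0425 and 0.0586 in miR-29 astrocytes, against 0.0861, 0.0961 and 0.0821 in control astrocytes. It fell by 0.70 (SE 0.16, adjusted p = 0.0112), and the other probes fell by 1.02 and 0.55. The neuron marker sum was 7.12 to 7.36 on the miR-29 arrays and 8.98 to 9.62 for the controls, with 4 of its genes higher and 6 lower. Most of that sum came from Stmn2 (means of 1.99 on the miR-29 arrays and 3.84 on the control arrays), Gad2 (0.769 and 1.49) and Tubb3 (3.07 and 2.21). The part of neurons in the fall of Slc6a17 was not tested. The call of the brightest probe was lost with a slide term in the model (-0.67, adjusted p = 0.0756) and with normexp (-0.24, adjusted p = 0.0762). Slc6a15, a carrier of branched-chain amino acids and proline, was at 0.555, 0.570 and 0.572 in miR-29 astrocytes, against 0.537, 0.508 and 0.564 in control astrocytes (0.078, SE 0.0549, adjusted p = 0.26). Slc6a14 was above background on 2 control arrays and no miR-29 array and was not tested. The genes Slc6a18, Slc6a19 and Slc6a20b were not above background on any array.

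Of 4 SLC36 genes on the array 3 were tested, of which 1 fell and 2 did not pass. Slc36a1 encodes PAT1, a proton-coupled carrier of small amino acids on lysosomes. It read 0.482, 0.435 and 0.439 in miR-29 astrocytes, against 0.677, 0.673 and 0.661 in control astrocytes. The groups were apart, and it fell by 0.57 (SE 0.0568, adjusted p = 0.000462) and by 0.58 within slide 1. Slc36a4, whose protein PAT4 carries proline and tryptophan, differed by 0.13 (SE 0.0686, adjusted p = 0.149), its second probe by 0.40 (adjusted p = 0.0833), and the mean of both passed (0.27, adjusted p = 0.043). Slc36a3, known from testis, was at 0.0375, 0.0414 and 0.0426 in miR-29 astrocytes, against 0.0305, 0.0438 and 0.0454 in control astrocytes (0.042, SE 0.162, adjusted p = 0.836). With the slide as a block it was called higher (0.41, adjusted p = 0.0177). Slc36a2 was above background on 1 miR-29 array and was not tested.

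Of the 3 SLC43 genes 2 fell and 1 did not pass. Slc43a2 encodes LAT4, which lets leucine and other branched-chain amino acids and phenylalanine through. It was at 0.0941, 0.108 and 0.0895 in miR-29 astrocytes, against 0.157, 0.149 and 0.150 in control astrocytes. The groups did not overlap, and it fell by 0.65 (SE 0.08, adjusted p = 0.00103), and by 0.35 with normexp. Slc43a1 encodes LAT3, of the same transport kind. It was above background on the 3 control arrays, through which alone it entered the test, and on no miR-29 array, and it was at least 1.73-fold lower (adjusted p = 0.039). That call was lost with a slide term in the model (adjusted p = 0.088) and with normexp (-0.17, adjusted p = 0.228). Leaving out miR-29 replicate 2, or any 1 control array, also ended it (adjusted p = 0.0564 to 0.0937). Slc43a3, known as a nucleobase carrier, was at 0.537, 0.519 and 0.423 in miR-29 astrocytes, against 0.478, 0.405 and 0.376 in control astrocytes. The groups overlapped (0.23, SE 0.128, adjusted p = 0.162), and the difference was 0.039 within slide 1.

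**Figure D4:**
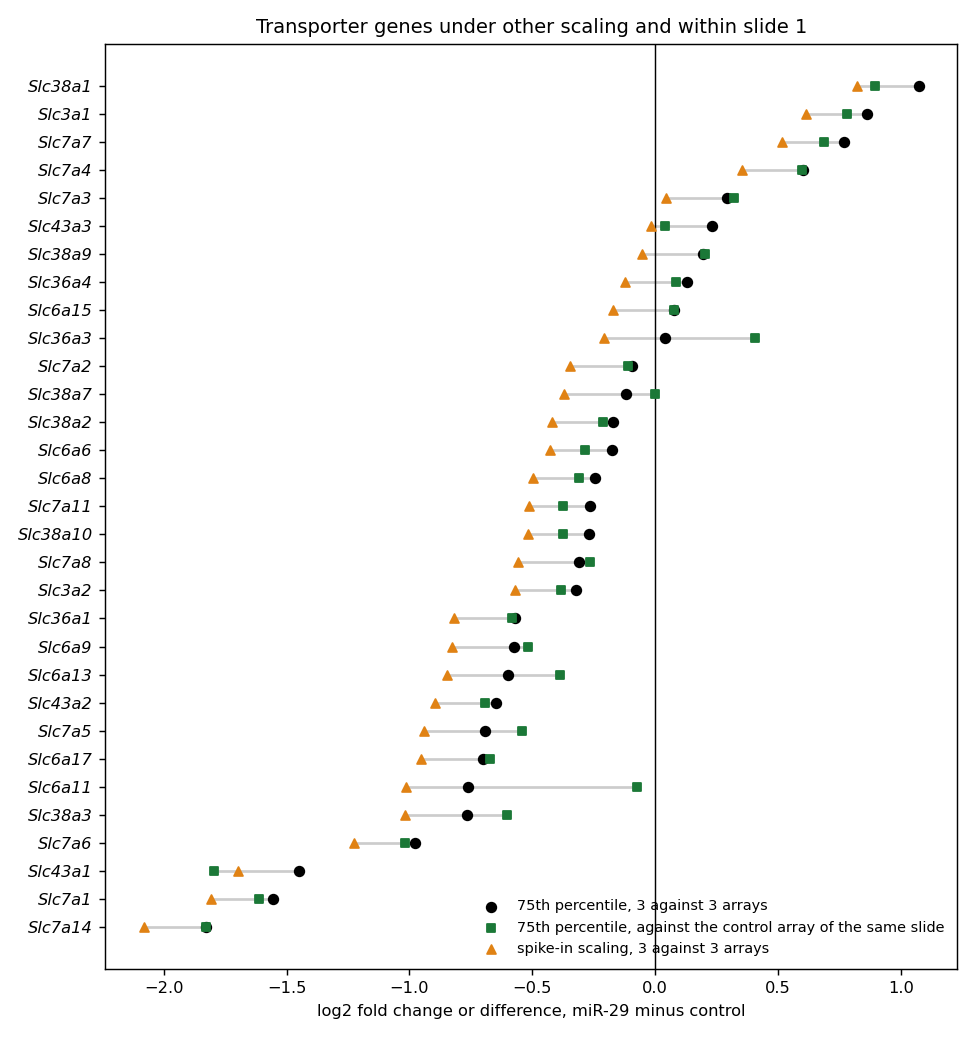
Log2 values (miR-29 minus control) of 31 of the 32 transporter genes with the 75th percentile scaling and all arrays (circles), against the control array of the same slide (squares) and with spike-in scaling (triangles). Spike-in scaling moved every gene to the left by 0.25. Slc6a11, at -0.76 and -0.072, and Slc36a3, at 0.042 and 0.41, differ most between circles and squares.

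Carriers outside these families and genes that use the same substrates were read from 6 lists, of which 0 to 4 genes each also stand in another list or among the members. Where no adjusted p is given for a gene named from them, it lay between 3.1e-05 and 0.00272. The list counts stand beside the shares over all 19741 genes and transcripts tested, 35.3% higher and 22.8% lower. With spike-in scaling 3010 of these were higher and 7607 lower. Slc15a3, Gatm and Ggt1 entered the test through the miR-29 arrays alone and Slc17a7 through the control arrays alone, so that the filter had already picked them for the group where they are high. Of 24 tested other carriers of amino acids and transmitters 10 fell, 7 rose and 7 did not pass (median -0.090; 14 lower and 6 higher with spike-in scaling). Slc1a3, a glutamate transporter gene of astrocytes, rose by 1.68 (SE 0.0874). Slc1a2, another of these and named here after its values were seen, was brighter, at means of 5.72 (miR-29) and 4.68 (control). Its brightest probe did not pass (0.29, SE 0.107, adjusted p = 0.0596), and the groups overlapped. The other probes of Slc1a2 rose by 0.35 to 0.48 (adjusted p = 0.00125 to 0.00685 over all probes). Slc15a3, a lysosomal carrier of histidine and peptides, was not above background on the control arrays and was at least 3.1-fold higher after miR-29 (adjusted p = 0.00176). Slc17a7, the vesicular glutamate transporter gene of neurons and 1 of the 14 neuron markers, averaged 0.0134 on the miR-29 arrays, where 1 of 3 was above background, and 0.0913 on the control arrays (adjusted p = 0.0326), and no fold is given. Its call was lost with a slide term in the model (adjusted p = 0.292), and leaving out miR-29 replicate 1 or 3 or control replicate 2 or 3 also ended it.

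Of 32 genes of creatine, transmitter and amino acid metabolism 18 rose, 5 fell and 9 did not pass (median 0.24). More rises than falls was also the pattern over all genes, with 35.3% higher and 22.8% lower. Scaling to spike-ins gave 9 higher and 9 lower in this list (median -0.0072). Beside the fall of the creatine transporter gene, both genes of creatine synthesis read higher, Gatm with a bound alone. Gatm, which makes the precursor guanidinoacetate, was not above background on the control arrays and was at least 2.37-fold higher (adjusted p = 0.0015). Gamt, which methylates it to creatine, rose by 1.37 (SE 0.0567, adjusted p = 4.08e-05). Ddc, the decarboxylase of dopamine and serotonin synthesis, rose by 2.04 (SE 0.104) and by 0.73 with normexp. Cdo1, which oxidises cysteine on the way to taurine, fell by 1.35 (SE 0.048).

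Of 25 genes of glutathione and cystine use, Slc7a11 among them, 15 rose, 6 fell and 4 did not pass (median 0.21; 7 higher and 8 lower with spike-in scaling, median -0.044). Hmox1, the heme oxygenase gene, rose by 1.25 (SE 0.0763) and Ggt7 by 1.07 (SE 0.0603). Gpx7, a peroxidase of the endoplasmic reticulum, fell by 1.32 (SE 0.0668). Ggt1, which splits extracellular glutathione, was at least 1.61-fold higher against control arrays on which it was not above background (adjusted p = 0.0075), which did not pass with normexp (0.085).

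The amino acid response, in which the factor ATF4 raises transporter and biosynthesis genes when amino acids are scarce, was mixed. Of 25 tested genes 8 fell, 4 rose and 13 did not pass (median -0.028; 15 lower and 4 higher with spike-in scaling, median -0.28). The folate enzyme gene Mthfd2 fell by 0.93 (SE 0.0596). Chac1, which degrades glutathione, rose by 0.59 (SE 0.0508), Ddit4 by 0.56 (SE 0.0675) and Cth, of cysteine synthesis, by 0.52 (SE 0.0609). Atf4, named here after its values were seen, had -0.38 (SE 0.103, adjusted p = 0.0222) and did not pass with a slide term in the model (-0.17) or without miR-29 replicate 2 or 3 or control replicate 2 or 3 (-0.38 to -0.31).

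ATF4 binds the letters TGATGNAA, and promoter windows of RefSeq (GRCm38.p6, 250 bases before to 50 after the gene start) were searched for them on both strands. A window was found for 35 of the 52 member symbols, and 2 of these symbols, Slc7a11 and Slc7a7, held a match. Of all 32851 windows 3.97% did. That share counts single windows, of which a symbol can have several, so it does not compare directly with the count of symbols. The Slc7a11 window, chr3:50443564-50443863 (minus strand), has 1 match on each strand, and the Slc7a7 window, chr14:54417895-54418194 (minus strand), has 2 on the strand shown and is 1 of 2 among the 5 windows of that gene that hold a match. These are shown because no other member gene with a window had a match. Of the 33 tested members 22 had a window. The others, Slc7a5, Slc38a1, Slc6a6 and Slc6a8 among them, could not be searched. By its brightest probe Slc7a11 had -0.26 and did not pass, and Slc7a7 rose by 0.77, a difference that was not tested. A match is only a description of the letters, which are in capitals.
Slc7a11: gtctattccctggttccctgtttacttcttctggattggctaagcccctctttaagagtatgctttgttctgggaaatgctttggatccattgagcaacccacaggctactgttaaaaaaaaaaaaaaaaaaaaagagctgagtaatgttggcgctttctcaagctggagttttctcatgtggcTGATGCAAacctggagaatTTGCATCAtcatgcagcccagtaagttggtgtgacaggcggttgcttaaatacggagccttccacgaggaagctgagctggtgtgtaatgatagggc
Slc7a7: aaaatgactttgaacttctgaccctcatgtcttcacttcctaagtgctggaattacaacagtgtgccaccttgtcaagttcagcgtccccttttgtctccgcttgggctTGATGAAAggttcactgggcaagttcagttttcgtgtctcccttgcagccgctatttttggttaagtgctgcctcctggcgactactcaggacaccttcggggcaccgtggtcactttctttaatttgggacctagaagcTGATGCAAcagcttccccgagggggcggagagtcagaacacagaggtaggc

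Beside the lysosomal carriers Slc38a9 and Slc36a1, 36 genes of amino acid sensing and mTORC1 were tested, and 12 rose, 5 fell and 19 did not pass (median 0.078; 2 higher and 13 lower with spike-in scaling, median -0.17). Rragd, a Rag GTPase gene, rose by 1.08 (SE 0.0658), with 0.97 from its second probe, and Tsc2, an inhibitor of the pathway, by 0.52 (SE 0.0537). Lamtor3, of the lysosomal anchor of the Rag proteins, fell by 0.76 (SE 0.0775), and Castor1, a cytosolic arginine sensor gene, by 0.76 (SE 0.0572). Of 20 cytosolic aminoacyl-tRNA synthetase genes, whose enzymes load amino acids onto tRNA, 7 rose, 1 fell and 12 did not pass (median 0.14; 1 higher and 7 lower with spike-in scaling, median -0.11). The share of these genes that rose is near the 35.3% over all genes. Dars rose by 0.65 (SE 0.0599), with 0.70 and 0.039 from its other probes. Hars, Qars and Kars rose by 0.42, 0.42 and 0.35, calls that were lost with spike-in scaling.

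**Figure D5:**
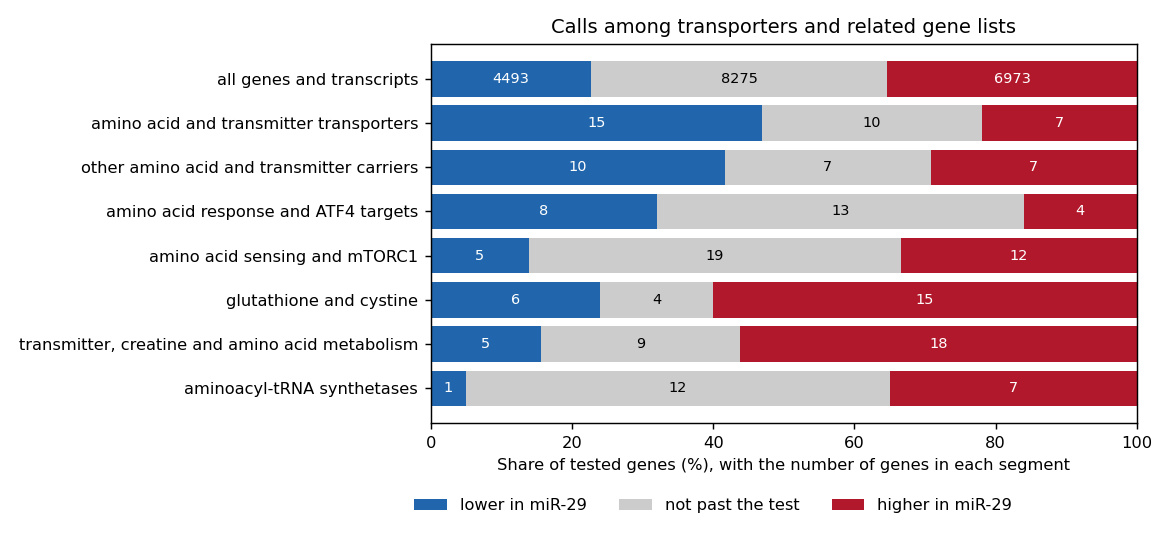
Share of tested genes that were lower (blue), not past the test (grey) or higher (red) after miR-29, for all genes, the 32 transporters and 6 related lists, with the number of genes in each segment. Among the transporters 15 were lower and 7 higher, and among all genes 4493 were lower and 6973 higher.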

How the data were processed

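Per the file headers, spots were read with Agilent Feature Extraction 10.7.3.1 (10.7 in the submitters' processing notes), giving a background-subtracted processed intensity on a linear scale. The series table deposited by the authors holds this intensity times 1 factor per array (2.63 to 3.43), by a rule that the labels do not give. Its column medians were 149.3, 155.4 and 148.8 (miR-29) and 146.3, 164.8 and 162.2 (control), linear and not centred. There were 0 columns of other samples.

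Values were log2 of the processed signal (floor 1) minus the array's 75th percentile over non-control probes (501 to 663). Spots with an outlier mark were dropped, and the spots of each probe averaged. Of 41174 probes 61.9% to 66.8% were well above background per array, 26428 were tested, and 0 spots were saturated. Unversioned accessions were matched to RefSeq (GRCm38.p6): 26933 probes had 1 symbol and 14241 none. The file headers name mm9 for the array design, and the coordinates printed for microRNAs and promoter windows are those of the RefSeq tables, not of the array. Each gene was its brightest tested probe, and 19741 genes and transcripts were fitted by limma 3.58.1 (lmFit, eBayes; R 4.3.3). Simulated data with known changes were used to check the procedure.

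The members and lists were chosen with earlier results of these data known. Named are all members tested and, per list, up to 4 called genes with the largest change and no overlap of groups. A member and a list gene that this rule names are counted but not reported here. A relative signal is not comparable between probes, and the number of arrays limits the precision. Alternatives were normexp with an offset of 50, quantile, median and spike-in scaling, the deposited table, other filters and probe rules, blocks, another variance model, a minimum fold of 1.2 and each array left out.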

Additional observations from a re-analysis of the deposited data

How the results depend on the processing

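Of the 23 members called, 11 kept their call under all 19 alternatives with a test, 12 lost it under at least 1, and Slc38a9 also changed sign: it was -0.053 with spike-in scaling and -0.28 with the mean of all tested probes. Of the 10 members not past the test, 9 passed under at least 1 alternative. Counts moved by over 1.5 times in these cases. With spike-in scaling 7607 genes were lower and 3010 higher, and 4 members were higher. With every probe tested by itself 23 member probes were lower, which counts several probes of a gene. Against a minimum fold of 1.2, a stricter test by construction, 2188 genes were lower and 2996 higher, and 8 members were lower and 4 higher. Leaving out 1 array gave 3674 to 5736 genes lower, 5674 to 7423 higher, 13 to 15 members lower and 6 to 8 higher.

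The labels number the replicates but state no pairing, and whether the numbers pair the arrays is not known. Same-numbered arrays deviated from their group means with correlations of 0.132, 0.0938 and 0.245 across genes. With the replicate number as a block 15 members were lower and 9 higher, 4524 genes lower and 6998 higher: Slc6a6 (adjusted p = 0.0372) and Slc43a3 (0.0384) passed and Slc38a10 (0.0502) did not. By these deviations all 6 arrays correlated best with the array of their own number in the other group. This is a hint of pairing from the data and not from the design. Normexp, which used the median spot signal of the array files, gave smaller changes for dim members than the processed signal did. Its offset of 50 is added to every signal, while the 75th percentiles were 501 to 663, so changes of dim probes shrink by construction. A call lost in it by a dim member therefore does not decide whether that member changed. Of the members named here, Slc43a1, Slc6a13, Slc6a17 and Slc7a14 lost their calls with normexp. Slc7a8 and Slc43a1 lost theirs without the filter on dim probes, where more probes are tested. The minimum fold ended the calls of Slc38a10, Slc38a9, Slc3a2, Slc43a1, Slc6a13, Slc6a17, Slc6a8, Slc7a3, Slc7a6os and Slc7a8. Slc43a1 and Slc7a14 could not be fitted with a filter on all 6 arrays. The cause of the other lost calls was not tested. Leaving out Slc7a6os was chosen after seeing the data.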
